A study of Mus musculus with 7 samples.

Results

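The report concerns 10 genes of macrophages and of complement C1q, measured in whole terminal ileum: C1qa, C1qb, C1qc, Csf1r, Mrc1, Fcer1g, Tyrobp, Lyz2, Mpeg1 and Fcgr3. They were found through the array annotation, by taking each probe set that names a listed gene and no other. That gave 14 of the 34945 probe sets with a single gene, for 10 of 18193 genes. C1qb and Csf1r had 3 probe sets each and every other gene had 1. The penicillin group held 4 male C57BL6J mice given penicillin from birth at 6.7 mg/L, a low dose, and the control group held 3 male C57BL6J mice that received no antibiotic. All 7 mice were weaned at 4 weeks onto chow, ate a diet with 45% of its calories from fat from 6 weeks, and were sampled at 8 weeks. RNA of each ileum was hybridised to its own Affymetrix array. The comparison asks how expression in the ileum differs after low-dose penicillin from birth.

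Macrophages of the gut wall take up microbes and dying cells beneath the epithelium, and in the mouse they are continually replaced in part from blood monocytes. They are a main source of C1q, the recognition molecule of the classical complement pathway. C1q is built from 3 kinds of chain, A, B and C, the products of C1qa, C1qb and C1qc, and it binds antibody in immune complexes and the surface of dying cells. Csf1r is the receptor for the growth factors that keep macrophages alive. Mrc1 is the mannose receptor, a scavenger of glycoproteins. Fcer1g and Tyrobp are small adaptor chains that pass signals from Fc receptors and from other activating receptors of myeloid cells and natural killer cells. Fcgr3 is an IgG receptor that signals through Fcer1g. Lyz2 is the lysozyme of myeloid cells, and Mpeg1 encodes perforin-2, a pore-forming protein of phagocytes.

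In the RefSeq annotation of GRCm38.p6 the 3 C1q genes lie next to each other on chromosome 4, in the order C1qb, C1qc, C1qa, with no other protein-coding gene between them. Upstream sequence was examined for 7 of the 10 genes: C1qb, C1qc, Mrc1, Fcer1g, Lyz2, Mpeg1 and Fcgr3. None was at hand for C1qa and Tyrobp, and Csf1r was left out of the search, so its upstream sequence was not tested. The 250 bases before the start are shown for C1qb and C1qc, neighbours whose levels moved together over the arrays, and for Mrc1, whose level followed the others least. Capitals mark GAGGAA or its reverse complement, the core that the myeloid transcription factor PU.1 can bind. The windows, all GRCm38.p6, are chr4:136886201-136886450 on the minus strand for C1qb, chr4:136892915-136893164 on the minus strand for C1qc and chr2:14229164-14229413 on the plus strand for Mrc1.
C1qb: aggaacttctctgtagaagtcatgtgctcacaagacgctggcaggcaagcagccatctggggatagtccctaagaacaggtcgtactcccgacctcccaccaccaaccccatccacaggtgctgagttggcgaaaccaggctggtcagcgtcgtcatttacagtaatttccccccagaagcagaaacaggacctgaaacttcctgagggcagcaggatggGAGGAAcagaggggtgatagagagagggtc
C1qc: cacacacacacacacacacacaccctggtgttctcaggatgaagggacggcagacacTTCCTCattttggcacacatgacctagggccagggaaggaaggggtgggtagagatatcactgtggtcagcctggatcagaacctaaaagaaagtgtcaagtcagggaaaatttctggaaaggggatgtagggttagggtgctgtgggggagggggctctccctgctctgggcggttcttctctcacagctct
Mrc1: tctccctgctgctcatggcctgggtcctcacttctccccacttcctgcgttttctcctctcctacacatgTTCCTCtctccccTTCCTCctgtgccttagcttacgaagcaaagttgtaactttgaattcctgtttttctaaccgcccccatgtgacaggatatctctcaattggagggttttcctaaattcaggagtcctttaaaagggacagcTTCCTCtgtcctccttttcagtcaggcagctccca
GAGGAA, searched on both strands, was present in 4 of the 7 windows, with 1 match in C1qb, C1qc and Fcgr3 and 3 matches in Mrc1. It was present in 23.1% of the 27025 upstream windows of the same length. These matches describe the letters of the windows and are not evidence of binding.

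The arrays were alike in range, with medians between 5.43 and 5.45 on the log2 scale and correlations between arrays of 0.992 to 0.998 over all probe sets. Control replicate 3 stood apart. Along the first principal component (48.0% of the variance) its score was -30.0, against -2.90 to 17.6 for the other arrays, with penicillin replicate 3 at the far end, 17.6. The colonocyte gene Car1 was at log2 14.1 in control replicate 3 and between 5.11 and 10.8 in the other 6 arrays. Genes of colon epithelium were not uniform in this. Aqp8 was also highest in control replicate 3, at 8.27, whereas Car4 was at 11.5 there and highest in penicillin replicate 3, at 11.9. Differences of the 10 genes and medians of the macrophage, complement and Fc receptor gene lists are therefore also given without both arrays. Which mice shared a litter or cage was not known here, so such an effect and that of penicillin cannot be told apart.

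No macrophage or C1q gene passed the test between the groups, although all 10 had lower mean values in penicillin mice. The differences, penicillin minus control, lay between -0.35 and -0.13 on the log2 scale, which is 1.27-fold lower for C1qa and 1.09-fold lower for Mrc1 at the ends of the range. The median over the 10 genes was -0.29, against a median of -0.014 over all 13644 genes tested, of which 54.7% had a difference below 0. In limma 0 of the 10 genes passed a Benjamini-Hochberg adjusted p of 0.05, with a smallest adjusted p of 0.399, for Csf1r. Over all genes 0.0953% passed. At an unadjusted p under 0.05 there were 4 of the 10, Csf1r, Mpeg1, C1qb and Tyrobp, where 6.35% of all genes were lower at that level. Because the 10 genes vary together over the arrays, as described further on, such a count is not a count of independent results. In whole tissue, fewer macrophages and less RNA of these genes per macrophage cannot be told apart.

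C1qa, the A chain, was at log2 8.92, 9.19, 8.66 and 9.18 in penicillin replicates 1 to 4, against 9.22, 9.20 and 9.57 in control replicates 1 to 3. The groups did not overlap, although penicillin replicates 2 and 4 lay just below control replicate 2. The difference was -0.35 ± 0.15 (SE) with a 95% interval from -0.70 to 0.0052 and an adjusted p of 0.472 in limma.

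C1qb, the B chain, was at 8.16, 8.46, 8.13 and 8.46 in penicillin mice and at 8.60, 8.44 and 8.72 in control mice. Penicillin replicates 2 and 4 lay above control replicate 2, so the groups overlapped. The difference was -0.29 ± 0.11 (SE, adjusted p = 0.439 in limma). The other 2 probe sets of C1qb gave -0.34 ± 0.15 and -0.23 ± 0.089 (SE) when every probe set was tested on its own.

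C1qc, the C chain, was at 7.21, 7.51, 7.01 and 7.54 in penicillin mice and at 7.62, 7.51 and 7.76 in control mice, with penicillin replicate 4 above control replicate 2. Its difference was -0.32 ± 0.14 (SE, adjusted p = 0.471 in limma). The 3 chains thus differed by similar amounts, and each was lowest in penicillin replicate 3 and highest in control replicate 3.

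Csf1r, the growth factor receptor, was at 10.13, 10.24, 9.86 and 10.11 in penicillin mice, against 10.36, 10.28 and 10.64 in control mice. The groups did not overlap. The difference was -0.34 ± 0.12 (SE, 1.27-fold lower) with a 95% interval from -0.61 to -0.074, which did not pass after adjustment. Of the other 2 probe sets of Csf1r, the brighter gave -0.32 ± 0.095 (SE), while the dimmer gave -0.077 ± 0.088 (SE), with overlapping groups. The dimmer was at 6.75 ± 0.056 (SD, n = 4) in penicillin mice and 6.83 ± 0.18 (SD, n = 3) in control mice.

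Mrc1, the mannose receptor, behaved differently from the other genes across the arrays. It was at 7.16, 7.14, 7.04 and 7.68 in penicillin mice and at 7.01, 7.38 and 7.76 in control mice. The lowest value of all was in control replicate 1, and penicillin replicate 4 was above 2 of the 3 control mice. The difference of -0.13 ± 0.20 (SE, adjusted p = 0.808 in limma) had a 95% interval from -0.61 to 0.35.

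**Figure D1:**
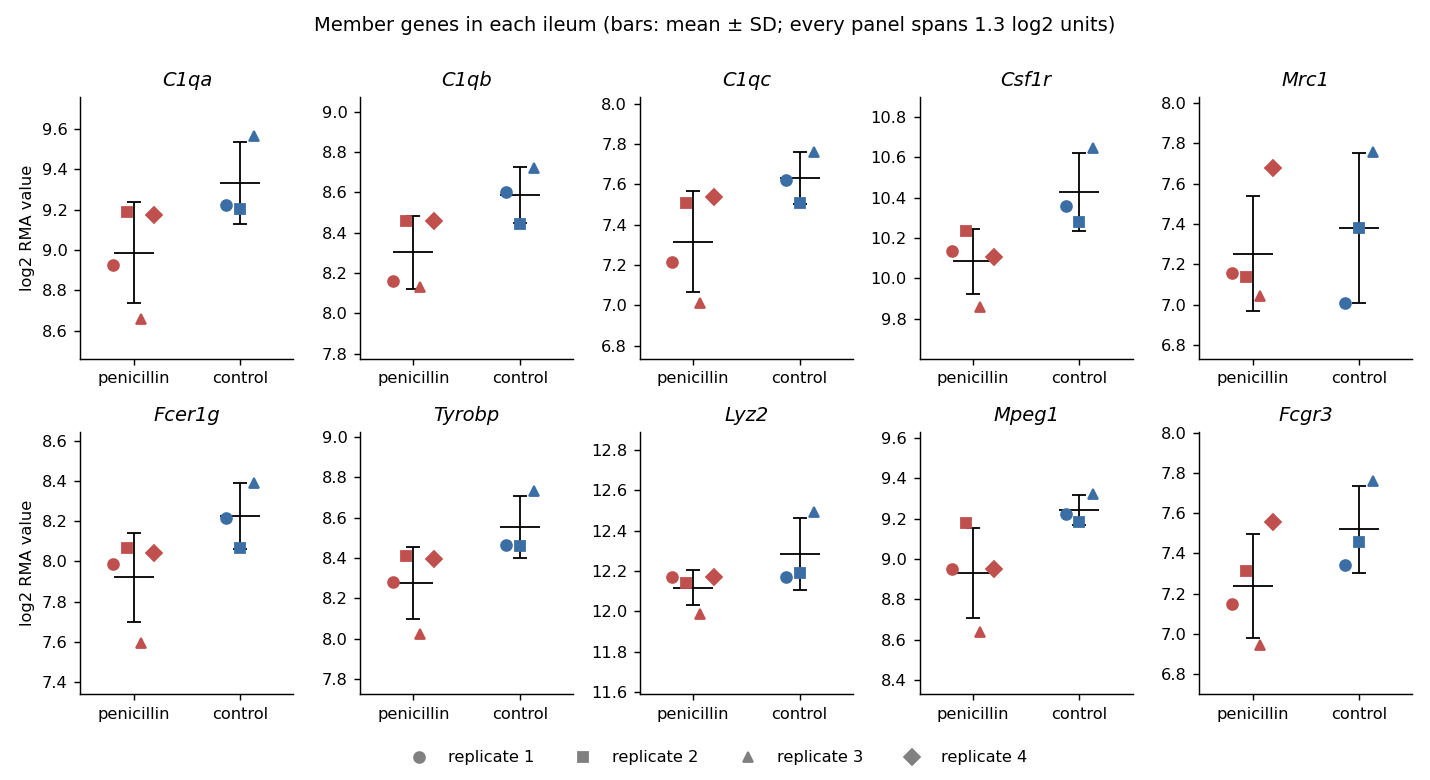
Log2 RMA value (vertical axis) of each of the 10 genes in 4 penicillin and 3 control ilea, with a marker per replicate and black bars for the mean ± SD. Control replicate 3 was the highest array for all 10 genes, and penicillin replicate 3 the lowest for 9, Mrc1 being the exception.

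The adaptor chains and the Fc receptor that uses one of them gave values of similar size. Tyrobp was at 8.28, 8.41, 8.02 and 8.39 in penicillin mice, against 8.47, 8.46 and 8.73 in control mice. The groups did not overlap, and the difference was -0.28 ± 0.11 (SE, adjusted p = 0.451 in limma). Fcer1g was at 7.99, 8.06, 7.59 and 8.04 in penicillin mice and at 8.22, 8.06 and 8.39 in control mice, with penicillin replicate 2 level with control replicate 2. Its difference was -0.30 ± 0.13 (SE, adjusted p = 0.470 in limma). Fcgr3 was at 7.15, 7.31, 6.94 and 7.55 in penicillin mice and at 7.34, 7.46 and 7.76 in control mice. Penicillin replicate 4 exceeded 2 of the 3 control mice, and the difference was -0.28 ± 0.16 (SE, adjusted p = 0.530 in limma). Fcgr3 shares much sequence with other Fc gamma receptors, so signal from these on its probe set was not tested.

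The effector genes of phagocytes were Mpeg1 and Lyz2. Mpeg1 was at 8.95, 9.18, 8.64 and 8.95 in penicillin mice, against 9.22, 9.18 and 9.32 in control mice. Penicillin replicate 2 came within rounding of control replicate 2 but stayed below it, so the groups did not overlap. The control mice were close together, at 9.24 ± 0.073 (SD, n = 3), while penicillin mice were at 8.93 ± 0.22 (SD, n = 4), and the difference was -0.31 ± 0.12 (SE, adjusted p = 0.426 in limma). Lyz2 was at 12.17, 12.14, 11.99 and 12.17 in penicillin mice and at 12.17, 12.19 and 12.49 in control mice. Apart from control replicate 3 and penicillin replicate 3 the arrays lay together, and the difference was -0.17 ± 0.093 (SE, adjusted p = 0.530 in limma). Lyz1, the close copy of Lyz2 made by Paneth cells, lay near the top of the scale on its brightest probe set, with a difference of -0.024 ± 0.047 (SE). Signal from Lyz1 on the Lyz2 probe set was not tested.

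**Figure D2:**
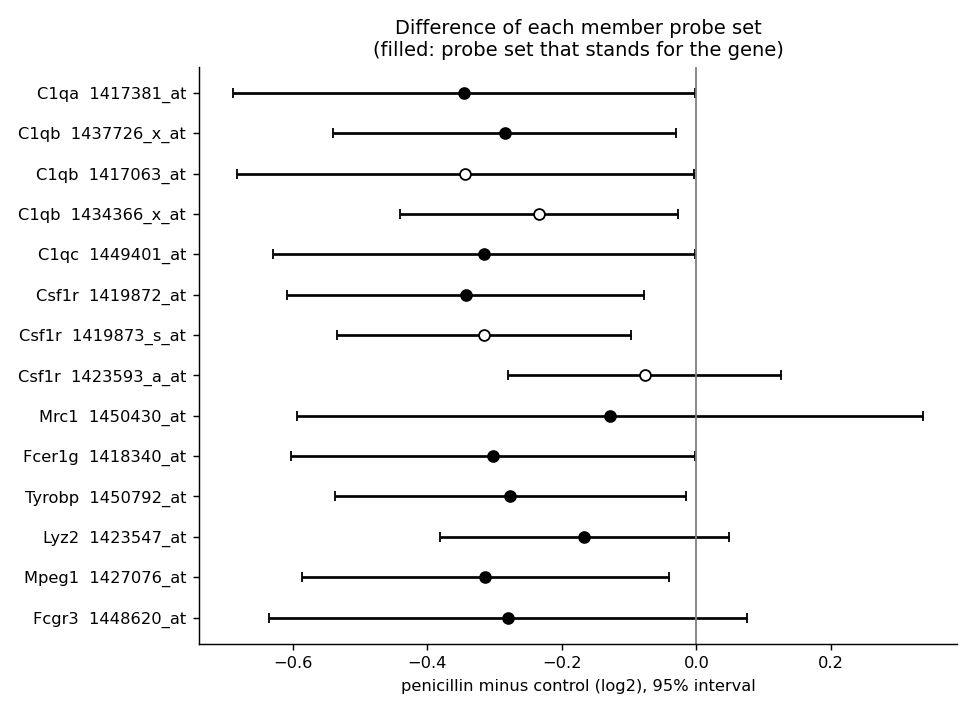
Difference between penicillin and control mice (log2, horizontal axis) for each of the 14 probe sets, with its 95% interval, from a fit in which each of 26208 probe sets was tested on its own. All 14 points lie below 0, from -0.35 for C1qa to -0.077 for the dimmest Csf1r probe set, and 4 intervals include 0.

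In all, 4 of the 10 genes had non-overlapping groups with penicillin lower, C1qa, Csf1r, Tyrobp and Mpeg1, where 6.05% of all genes did. Control replicate 3 was the highest array for all 10 genes, and penicillin replicate 3 the lowest penicillin array for all 10. Leaving out either could therefore only raise the differences. Without control replicate 3 the median difference of the 10 genes was -0.22, and without penicillin replicate 3 it was -0.20. Without both arrays it was -0.11. In that fit C1qa differed by -0.12, Csf1r by -0.16, Mpeg1 by -0.18 and Lyz2 by -0.019, and Mrc1 by 0.13, the other way. Mrc1 was also the other way, at 0.058, without control replicate 3 alone. None of these genes passed in limma in any of the fits. Without both arrays 1 of the 10 had an unadjusted p under 0.05, and 10.5% of all genes did, so that count was near the background.

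**Figure D3:**
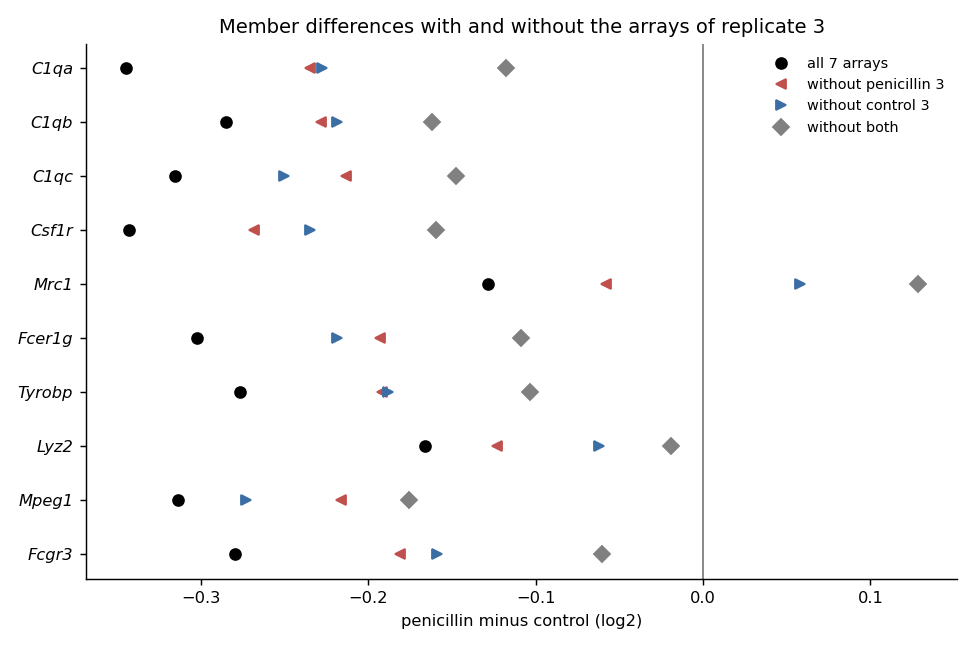
Difference between penicillin and control mice (log2, horizontal axis) for each gene over all 7 arrays and without penicillin replicate 3, control replicate 3 or both. Each of the 10 values moved towards 0 when either array was left out, and past it for Mrc1 without control replicate 3. This direction was fixed beforehand, since control replicate 3 was the highest control array and penicillin replicate 3 the lowest penicillin array for every gene.

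The arrays ordered most of these genes in the same way. Control replicate 3 was the highest array for 10 of 10 genes, and it was the highest for 30.2% of all genes tested. Penicillin replicate 3 was the lowest array for 9 of 10 genes, and for 20.7% of all genes. Both held at once for 12.1% of all genes.

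Co-variation was measured for all 45 pairs of the 10 genes over the 7 arrays, with two-sided exact permutation tests over the 5040 pairings of the arrays and Benjamini-Hochberg adjustment over the pairs. The median Pearson r was 0.893, and 35 pairs passed an adjusted p of 0.05. By Spearman's rho, with a median of 0.786, 20 pairs passed. The share of pairs of all genes that would pass was not computed, so these counts have no background. By r with the mean of the C1q chains, Mrc1 stood at percentile 79.3 of the 13632 other genes and Lyz2 at 95.5. Csf1r, Mpeg1, Fcgr3, Fcer1g and Tyrobp stood between 99.2 and 99.9. The 3 C1q chains were closely tied. C1qa and C1qb had r = 0.945 and rho = 0.883, C1qa and C1qc had r = 0.975 and rho = 0.893, and C1qb and C1qc had r = 0.973 and rho = 0.937. Each of these 3 values of r had an adjusted p of 0.00595 by the exact permutation test. Without the 2 arrays farthest from the median of the first gene, r was still 0.950, 0.973 and 0.989 for these pairs. Across the 45 pairs that step, which leaves 5 arrays and narrows the range of the first gene, gave a median r of 0.663 and a lowest r of -0.63, for Csf1r and Mrc1. Without control replicate 3 alone the median was 0.868.

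C1qa was tied as closely to Tyrobp, a gene outside its own complex, and less closely to Mpeg1. It had r = 0.993 with Tyrobp and r = 0.922 with Mpeg1, both with rho = 1.00, so that the 7 arrays stood in the same order for these 3 genes. C1qa and Tyrobp kept r = 0.957 without the 2 arrays farthest from the C1qa median, whereas C1qa and Mpeg1 had r = 0.700 without them. C1qa and Csf1r, at r = 0.943 over all arrays, had r = 0.596 without them. Fcer1g and Fcgr3, a receptor and its signalling chain, had r = 0.858 (rho = 0.721), and without the 2 farthest arrays r = 0.153. Fcer1g was closer to the other adaptor, Tyrobp, at r = 0.974 (rho = 0.991).

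Mrc1 was the exception. Its 9 pairs had a median r of 0.572, from 0.345 with Mpeg1 to 0.852 with Fcgr3, and 2 of them passed by Pearson's r, those with Fcgr3 and Lyz2. By Spearman's rho 0 of the 9 passed, and 0 did at an unadjusted p under 0.05. The 36 pairs that did not involve Mrc1 had a median r of 0.920. Without control replicate 3 the median of the Mrc1 pairs was 0.337 and that of the other pairs 0.890. The difference between these medians was not tested.

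The group difference is part of each of these correlations. With the mean of each group taken out, the median r over the 45 pairs was 0.841, and C1qa and C1qc had r = 0.956. The 9 pairs with Mrc1 had a median of 0.577 and a lowest value of 0.269. Outside the Mrc1 pairs the relations were therefore also present among mice of the same treatment, as a description of 7 arrays. Group-centred r without the replicate 3 arrays, the extremes of their groups for most genes, was not computed.

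**Figure D4:**
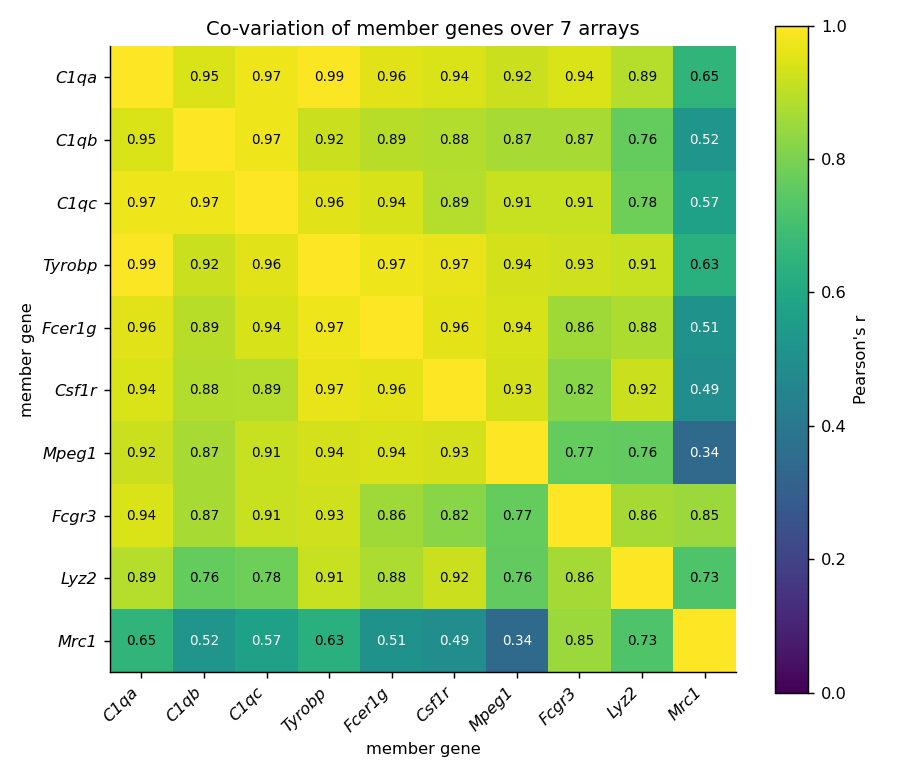
Pearson's r over the 7 arrays for each pair of the 10 genes, with both axes listing the genes and colour giving r. The block of C1q chains, Tyrobp and Fcer1g lies between 0.89 and 0.99, and the row of Mrc1 between 0.345 and 0.852.

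Among the 13632 other genes compared, the 5 whose level followed the mean of the C1q chains most closely over the 7 arrays were Gemin2 at r = 0.992, Cby1 at 0.990, Mrpl4 at 0.987, Anapc13 at 0.986 and Clec7a at 0.985. Clec7a is dectin-1, a receptor of myeloid cells for fungal glucans. It was at 7.42, 7.73, 7.29 and 7.68 in penicillin mice and at 7.83, 7.62 and 8.03 in control mice. The changes behind these likenesses can be small, since Anapc13 had an SD of 0.070 over the arrays and Mrpl4 of 0.075. Lowest were Atf6 at r = -0.991, Mylk2 at -0.976 and Zfp729b at -0.970. With 7 arrays, 165 of the other genes had r above 0.9, while the median over them was 0.11. These likenesses are given as a description with no test.

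Other genes of macrophages gave a mixed picture, with 0 past the threshold in limma. Over all genes tested 54.7% were below 0. At an unadjusted p under 0.05 in limma 6.35% were lower, and 596 of 13644 were higher. These values are the background for the counts in the gene lists from here on, whose genes were not shown to vary independently. Of 18 surface and scavenger markers 14 were tested, 11 of them below 0, with a median of -0.11 and 1 lower at an unadjusted p under 0.05. That 1 was Itgam, the alpha chain of complement receptor 3, at -0.64 ± 0.23 (SE, adjusted p = 0.413 in limma). Cx3cr1, the fractalkine receptor, was at -0.12 ± 0.054 (SE). Without both replicate 3 arrays the median of these 14 genes was 0.017, the other way, with 4 below 0, and Itgam was at -0.46. Timd4, Vsig4, Marco and Cd209d were under the filter on low values.

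Of 13 lysosomal and intracellular markers 11 were tested, 10 of them below 0, with a median of -0.12 and 3 lower at an unadjusted p under 0.05. Over all genes 6.35% were lower at that level. Laptm5, a lysosomal membrane protein of blood cells, was at -0.59 ± 0.12 and Unc93b1, the chaperone of endosomal Toll-like receptors, at -0.21 ± 0.060 (SE). Their adjusted p in limma was 0.175 and 0.322. Of 16 growth factors and transcription factors 11 were tested, with a median of -0.094. At an unadjusted p under 0.05 there were 2 lower and 1 higher. Irf8, a factor of monocyte and dendritic cell development, was at -0.64 ± 0.098 (SE, adjusted p = 0.0911 in limma). Nr1h3, the liver X receptor alpha, was at 0.29 ± 0.080 (SE) in the other direction. Without both replicate 3 arrays the median was -0.053 for the lysosomal and intracellular markers and -0.010 for the factors, and Irf8 was at -0.66. Csf1, a ligand of Csf1r, was at -0.029 ± 0.14 (SE), and Il34, the other ligand, at -0.12 ± 0.12 (SE), both named as partners of a listed gene.

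Of the complement genes outside C1q, 0 passed in limma. As background for the counts that follow, 6.35% of all genes were lower at an unadjusted p under 0.05. Among 15 components 9 were tested, 6 of them below 0, with a median of -0.14 and 2 lower at an unadjusted p under 0.05. Cfi, the protease that inactivates C3b and C4b, was at -0.62 ± 0.13 (SE, adjusted p = 0.173 in limma), and C2, the component cleaved by the activated C1 complex, at -0.47 ± 0.12 (SE). C1ra and C1s1, the proteases that C1q carries, were at -0.37 ± 0.20 and -0.24 ± 0.14 (SE). Among 13 regulators and receptors 10 were tested, 8 of them below 0, with a median of -0.27, 4 lower and 1 higher at an unadjusted p under 0.05. Itgax, the alpha chain of complement receptor 4, was at -0.30 ± 0.083 and Itgb2, the beta chain shared by these receptors, at -0.44 ± 0.15 (SE). Cd55, which protects cells by dissociating complement convertases, was at 0.54 ± 0.23 (SE). With every probe set tested on its own, its dimmer probe sets gave 0.30 ± 0.27 and -0.038 ± 0.21 (SE). Without both replicate 3 arrays the median of the components was -0.0020 and that of the regulators and receptors -0.14. In that fit Cfi was at -0.59 and C2 at -0.58, while C1ra was at -0.040, C1s1 at 0.0036 and Cd55 at 0.22.

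Of 19 genes of Fc receptor and ITAM signalling, the route used by Fcer1g and Tyrobp, 13 were tested and 11 were below 0, with a median of -0.17. None passed in limma, and 3 were lower at an unadjusted p under 0.05, where 6.35% of all genes were. Clec4n, dectin-2, which signals through Fcer1g, was at -0.51 ± 0.11 (SE, adjusted p = 0.173 in limma). Its dimmer probe set gave -0.21 ± 0.13 (SE), with overlapping groups, when every probe set was tested on its own. Pirb, an inhibitory receptor, was at -0.26 ± 0.10 (SE), and Trem2, a receptor that signals through Tyrobp, at -0.13 ± 0.12 (SE). The kinase Syk, which both adaptors recruit, was at 0.0064 ± 0.12 (SE). Without both replicate 3 arrays the median of the 13 genes was -0.12 and Clec4n was at -0.39.

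Markers of other cell types also varied over the arrays, some in the same order as these genes and some not. Their part in the values of the 10 genes was not tested. The mean over the 10 genes, taken relative to its 7-array mean, ranged from -0.37 to 0.045 in penicillin mice and from 0.056 to 0.35 in control mice. The same mean over 12 genes of ileal enterocytes and the brush border ranged from -0.12 to 0.48 in penicillin mice and from -0.84 to 0.095 in control mice. Their highest value was in penicillin replicate 3 and their lowest in control replicate 3, the reverse of the macrophage genes. For 10 genes of colon epithelium the range of this mean was -0.65 to 0.13 in penicillin mice and -0.064 to 1.44 in control mice, with the lowest and highest values in the same arrays as the macrophage genes. The genes of this list did not all follow its mean. Car1 and Aqp8 were highest in control replicate 3, and Car4 in penicillin replicate 3.

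Of the lymphocyte and natural killer cell markers, which matter here because Tyrobp and Fcer1g are also made by natural killer cells, Klrd1 alone of its list of 8 was above the filter, at -0.89 ± 0.16 (SE, adjusted p = 0.142 in limma). The mean over the 6 T cell genes tested, again relative to its 7-array mean, ranged from -0.33 to -0.025 in penicillin mice and from 0.16 to 0.32 in control mice. Mast cells, another source of Fcer1g, had 2 of 10 markers above the filter, with group differences of -0.10 for Kit and -0.056 for Mcpt2, and neutrophils 2 of 10, with group differences of 0.16 for Ngp and -0.10 for Mmp9. Monocyte genes had 4 of 8 above the filter, and their mean relative to the 7 arrays was from -0.28 to 0.17 in penicillin mice and from -0.13 to 0.31 in control mice. The mean over the 8 dendritic cell genes tested lay between -0.070 and 0.022 in penicillin mice and between -0.0033 and 0.052 in control mice. That over the 8 smooth muscle genes lay between -0.38 and 0.14 in penicillin mice and between -0.025 and 0.26 in control mice, with its lowest value in penicillin replicate 4.

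**Figure D5:**
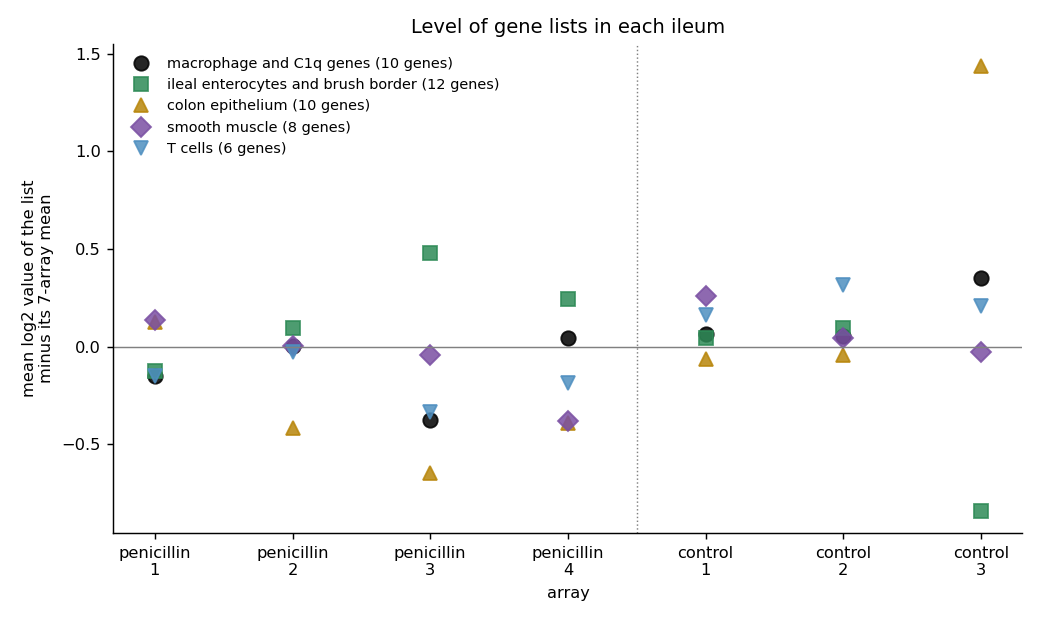
Mean log2 value of each gene list minus its mean over the 7 arrays (vertical axis) for each array, penicillin mice on the left and control mice on the right. The macrophage and C1q genes reach from -0.37 in penicillin replicate 3 to 0.35 in control replicate 3, while the enterocyte list reaches from 0.48 to -0.84 in these arrays.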

How the data were processed

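The authors deposited 1 log2 value for each probe set and array, made with RMA in the affy package, as the submitters' processing notes list. RMA corrects background, equalises the distributions of the arrays and summarises the probes of a set, so it can compress differences and gives no detection call. Software versions and a build were not given in the sources used here. The tissue label is terminal ileum, although the growth protocol mentions collecting livers. Gene names came from the platform annotation, updated through RefSeq gene IDs. Of 45101 probe sets, 34945 had 1 gene and were not manufacturer's controls.

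Each gene was represented by its probe set with the highest mean, and genes with a mean above the 25th percentile of all genes (log2 4.588) were kept, leaving 13644. All 10 members passed. The group comparison used limma 3.58.1 under R 4.3.3 (lmFit, eBayes, two-sided, adjusted p threshold 0.05), which was also checked on simulated data. The number of arrays limits the precision. Samples were biological replicates per the labels, and same-numbered replicates did not deviate together. The text names all members, up to 2 genes of each list by the largest moderated statistic, and the 5 most and 3 least alike genes. Genes that it does not cover (Car1, Aqp8, Car4, Lyz1, Csf1, Il34, C1ra, C1s1, Cd55, Trem2 and Syk) were added as partners, markers or after their values were seen. Lists of dendritic cells, B cells, Paneth cells, adipocytes and erythrocytes were also written. Members and lists were chosen with earlier results of these data known. Alternatives are in the closing section. Figures used matplotlib 3.10.9.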

Additional observations from a re-analysis of the deposited data

Results flagged for a closer look

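Among 14 probe sets examined in the 4 penicillin mice, 1 had an array far from the rest. Fcer1g was at log2 7.59 in penicillin replicate 3, while the other 3 penicillin mice lay between 7.99 and 8.06. The gap to the nearest array took up 0.841 of the range of the group, above Dixon's 95% critical value for 4 samples. Chance alone would give such a gap in about 1 in 20 groups. Without this array Fcer1g differed by -0.19 between penicillin and control mice, against -0.30 with it.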

How the results depend on the processing

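In limma 0 of the 10 members passed under each alternative, including an adjusted p threshold of 0.1 and each probe set tested on its own, with smallest adjusted p between 0.106 and 0.790. Their median difference lay between -0.35 and -0.11 over the alternatives, and between -0.35 and -0.20 leaving out 1 array in turn. Of 180 recomputed single-member differences 177 kept their direction and side of the threshold. Leaving out 1 array in turn, Mrc1 ranged from -0.31 to 0.058. The exceptions were Mrc1 at 0.17 with array quality weights, 0.058 without control replicate 3 and 0.13 without both replicate 3 arrays, and the cause was not tested. The median correlation was 0.786 by Spearman's rho and 0.841 with group-centred values, and 0.831 to 0.931 leaving out 1 array in turn. For the C1q chains it was 0.893, 0.954, and 0.942 to 0.976. The count over all genes was 13, against 774 with array quality weights, 7 with probe sets averaged, 40 at 0.1, 2 without both replicate 3 arrays, and 0 to 15 leaving out 1 array. With the replicate number as a block, over 3 pairs, 0 genes and 0 members passed and the member median was -0.34. Deviations of same-numbered mice correlated at -0.16, 0.0030 and -0.42, which showed no pairing by number. Whether same-numbered mice shared a litter or cage is not known. Leaving out both replicate 3 arrays was applied to the other gene lists as an alternative chosen after seeing the data. The list median then turned to 0.017 for macrophage surface and scavenger markers, 0.075 for adipocytes, 0.24 for mast cells and 0.12 for monocytes, and the cause was not tested.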

Other observations

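Genes of Paneth cells, the antimicrobial cells of the crypt base, had 6 of 6 tested values below 0, with a median of -0.30, 0 past the threshold in limma and 3 lower at an unadjusted p under 0.05. Over all genes 54.7% were below 0 and 6.35% were lower at that level. Mptx1, a mucosal pentraxin, was at -1.09 and Pla2g2a, a secreted phospholipase, at -0.62, while Lyz1 was at -0.024. B cells had 3 of 8 markers above the filter, with Cd79b, part of the B cell receptor, at -0.74 and Blk, a B cell kinase, at 0.11. Of 5 adipocyte genes 4 were below 0, with Adipoq at -0.43 and Fabp4 at -0.21, and their mean was highest in control replicate 3, at 0.95 relative to the 7 arrays. None of the erythrocyte genes was above the filter.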
